A study of Arabidopsis thaliana with 24 samples.

Results

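The morning-phased genes of the Arabidopsis circadian clock were followed in roots after 2 suborbital flights. The set was chosen by name, with earlier results of these data known. It holds 10 genes: the MYB repressors CCA1 (AT2G46830) and LHY (AT1G01060), the MYB factors RVE1 (AT5G17300), RVE4 (AT5G02840, also LCL1) and RVE8 (AT3G09600), the coactivators LNK1 (AT5G64170) and LNK2 (AT3G54500), the pseudo-response regulators PRR9 (AT2G46790) and PRR7 (AT5G02810), and the output gene CCL (AT3G26740). All 10 identifiers were found among the 33469 genes of the Col-0 table and the 32844 genes of the WS and sku5 table.

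The plant clock is a loop of transcription factors that repress one another in turn through the day. CCA1 and LHY accumulate around dawn and repress evening genes, the RVE4 and RVE8 proteins activate many of the same genes together with the LNK proteins, and PRR9 and PRR7 then shut off CCA1 and LHY during the day. Evening proteins such as ELF3, ELF4 and LUX repress PRR9, PRR7 and LUX itself at night. The root clock is coupled to the shoot and is known to respond to light and to sugar arriving from the shoot. RVE1 links the clock to auxin synthesis, and CCL encodes an unstable, rhythmic transcript that is used as a marker of clock output.

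Poly(A) RNA of whole roots was sequenced in 24 libraries, 3 in each of 8 groups. On the Blue Origin flight (BO), sku5 (stock CS16268, a root-skewing mutant in the Wassilewskija background) and wild-type Wassilewskija (WS) were 11 days old; on the Virgin Galactic flight (VG), wild-type WS and wild-type Columbia (Col-0) were 10 days old. Each line had a flown and a ground group. All plants had grown under 24 h of light per day on medium with 0.5% sucrose, at 19 °C until transport, after which BO plates were kept in a cultivator at 26 °C and VG plates under an LED bank at the site. Both vehicles gave 3 min of microgravity between phases of raised gravity that peaked near 3 g and 5.7 g at BO and near 4.5 g and 3.5 g at VG. Flown plates were wrapped in black cloth. The BO rocket was launched at 12:53 PM, flown BO seedlings were fixed 33 min after landing, and BO ground seedlings were taken from the cultivator 1 h after them. In the BO comparisons the flight, the darkness, the surroundings of the plates and the hour of harvest therefore cannot be told apart, and no source used here gives the hour of harvest at VG. The 3 replicates of a group came from roots of 1 fixation tube, so p-values measure only the spread between these samples.

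Values are FPKM (fragment counts scaled for transcript length and library size), without read totals, so the depth of each library is unknown. The number of genes with at least 1 FPKM ran from 18176 to 18877 per library. Transcript of SKU5, the mutated gene, lay between 3.17 and 9.85 FPKM in the 6 sku5 libraries and at 27.6 FPKM or more in the WS libraries. All 9 root markers were at 1 FPKM or more in all libraries. In bulk RNA, fewer cells of a type and less RNA per cell cannot be told apart.

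Promoters are shown because most genes of the set share a motif. A G-box (CACGTG, identical on both strands) lay within 250 bases before to 50 bases after the annotated start of 8 of the 10 genes, all except RVE4 and CCL, while 7.68% of 27444 protein-coding promoters held one. PRR9 held 2. Counting only the 250 bases before the start, 5 of the 10 genes and 6.49% of promoters held a G-box. The evening element (AAAATATCT, either strand), the sequence through which CCA1 and LHY bind evening genes, was present in PRR9 and CCL and in 2.82% of promoters. The CCA1-binding site (AAAAATCT, either strand, a word distinct from the evening element) was present in 0 of the 10 and in 7.88% of promoters. In 5 of the 10 genes (CCA1, LHY, RVE1, PRR9 and PRR7) the G-box was followed by TC on at least 1 strand (CACGTGTC), against 2.45% of promoters. That longer word was picked after the promoters had been read. Such matches describe letters in these windows, not bound sites.

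The 250 bases before the start of 4 genes are given from RefSeq (TAIR10.1), 5′ to 3′ on the strand of the gene, with the G-box or the evening element in capitals. They are the repressor pair CCA1 (chr2:19245341-19245590, plus strand) and LHY (chr1:37872-38121, minus strand), the regulator PRR7 (chr5:642031-642280, minus strand) and the output gene CCL (chr3:9827432-9827681, plus strand).
CCA1: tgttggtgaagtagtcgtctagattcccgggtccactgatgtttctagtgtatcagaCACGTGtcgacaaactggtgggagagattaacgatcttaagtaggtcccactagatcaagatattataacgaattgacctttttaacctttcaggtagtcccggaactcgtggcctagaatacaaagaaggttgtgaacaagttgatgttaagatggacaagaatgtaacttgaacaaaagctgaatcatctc
LHY: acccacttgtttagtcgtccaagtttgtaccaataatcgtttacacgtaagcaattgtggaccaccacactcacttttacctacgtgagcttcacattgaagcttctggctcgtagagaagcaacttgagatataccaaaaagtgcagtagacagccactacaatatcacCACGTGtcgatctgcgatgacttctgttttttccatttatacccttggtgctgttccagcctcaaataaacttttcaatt
PRR7: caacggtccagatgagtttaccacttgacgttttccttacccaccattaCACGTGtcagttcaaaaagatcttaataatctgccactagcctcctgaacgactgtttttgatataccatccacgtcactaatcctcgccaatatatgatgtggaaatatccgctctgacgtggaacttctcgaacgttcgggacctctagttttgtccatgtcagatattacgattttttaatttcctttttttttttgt
CCL: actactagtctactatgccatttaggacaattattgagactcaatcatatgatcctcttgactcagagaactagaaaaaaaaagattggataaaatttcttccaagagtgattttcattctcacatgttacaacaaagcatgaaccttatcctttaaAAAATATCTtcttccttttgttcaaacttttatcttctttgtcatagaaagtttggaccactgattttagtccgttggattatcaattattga

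The G-box starts 193 bases before the start of CCA1, 80 bases before that of LHY and 201 bases before that of PRR7. The evening element of CCL starts 93 bases before the gene.

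**Figure D1:**
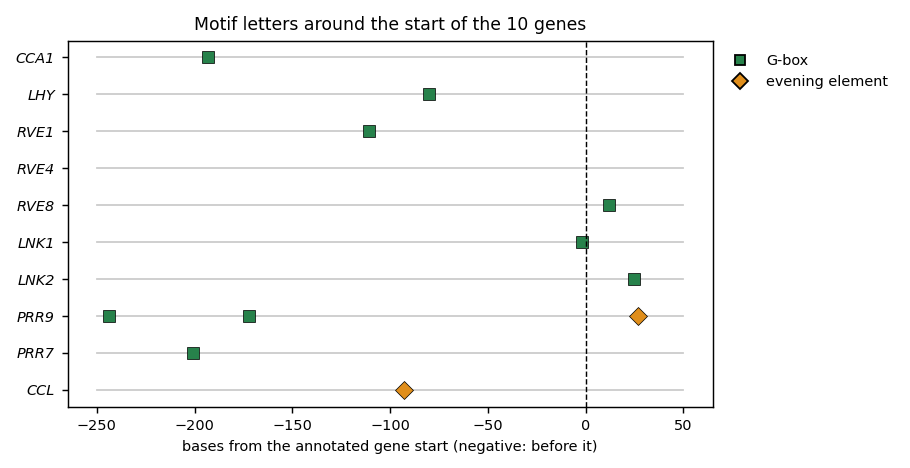
Position of each G-box (squares) and evening element (diamonds) from 250 bases before to 50 bases after the annotated start of the 10 genes, with the start at 0 and the x axis in bases. RVE4 has neither word, PRR9 has both, and the 2 G-boxes of PRR9 lie 244 and 172 bases before its start.

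Across the 24 libraries the genes covered a wide span of levels. RVE4 was the most abundant by group mean on the VG flight, with 104 ± 11.4 FPKM in flown Col-0 roots (SD, n = 3), and LNK1 and PRR9 were the least, with group means of at most 0.493 FPKM at VG. LNK1 and PRR9 were therefore not tested in Col-0 and passed the filter for WS and sku5 only through the BO libraries.

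CCA1, LHY and LNK2 had their highest group means in flown BO roots. For CCA1 the order of group means was 95.5 FPKM in flown WS at BO, 82.4 in flown sku5, 36.5 in ground sku5, 35.8 in ground WS at BO, 18.6 in flown WS at VG, 15.3 in flown Col-0, 13.7 in ground Col-0 and 10.3 in ground WS at VG. Only 1 pair of neighbours in that order, flown and ground sku5, had ranges that did not overlap. LHY followed the same pattern, with group means between 18.3 and 102 FPKM, and its ranges were apart only between flown sku5 and ground WS at BO. RVE1, RVE4 and CCL took another order. Their lowest means were those of the BO ground groups (RVE1 9.40 FPKM in sku5 and 11.6 in WS, RVE4 34.9 and 37.8, CCL 0.613 and 2.96), while flown BO roots had group means from 25.7 to 40.1 FPKM for RVE1, from 76.7 to 99.6 for RVE4 and from 14.0 to 16.8 for CCL, and the VG groups had 25.4 FPKM or more, 68.4 or more and 16.0 or more. LNK1 and PRR9 had means of 3.70 to 7.73 FPKM in the 4 BO groups and below 0.5 FPKM in the VG groups. Col-0 was normalized in a table of its own, so its place in these orders compares 2 tables.

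**Figure D2:**
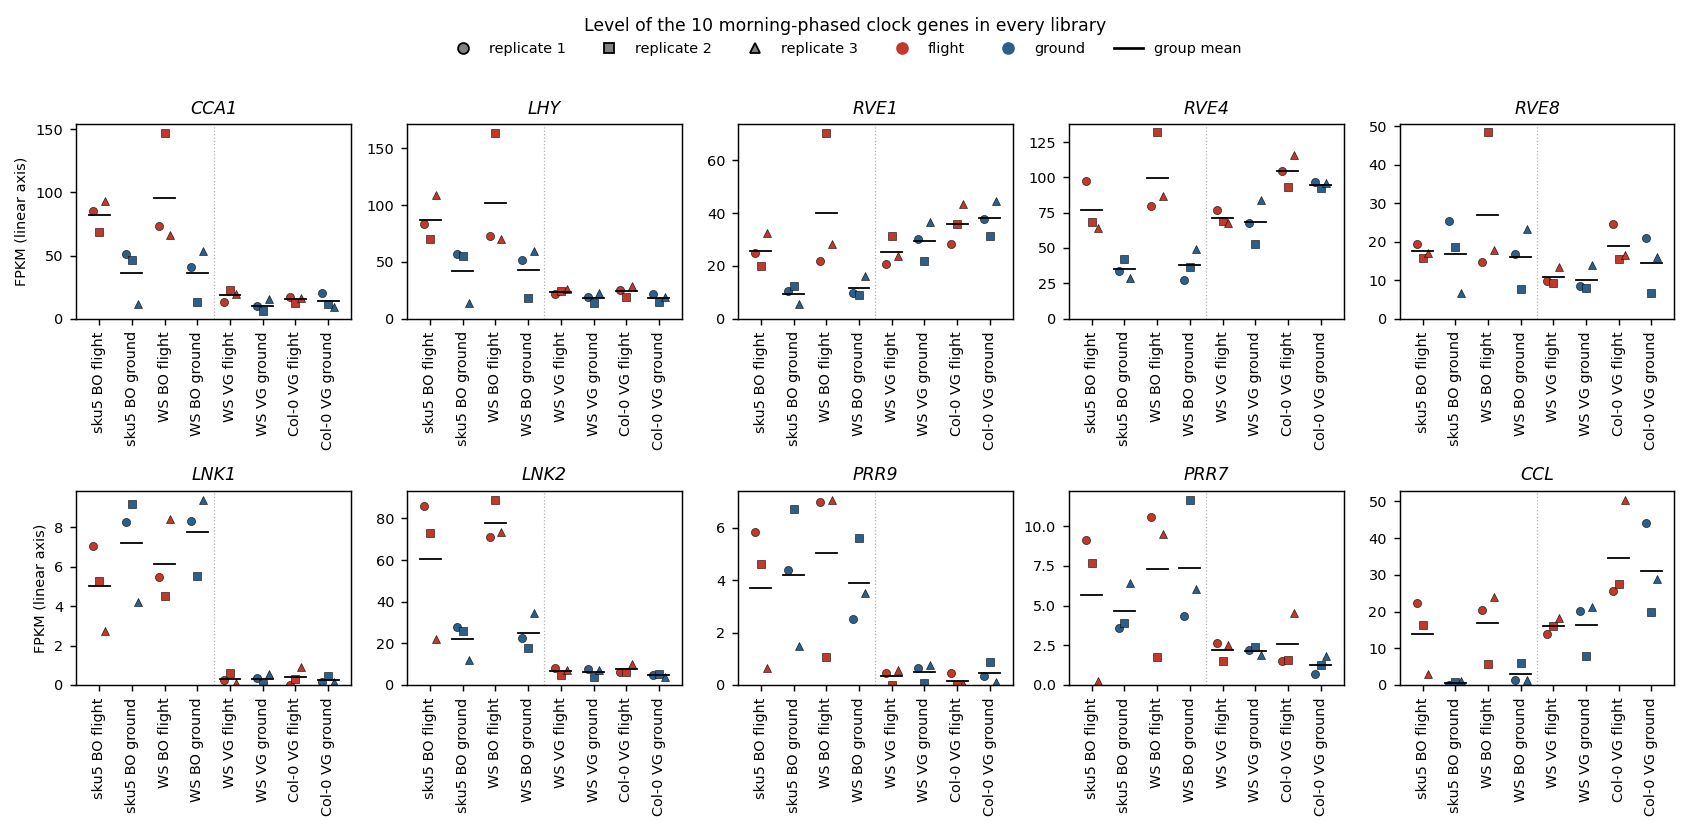
FPKM (linear axis) of each of the 10 genes in every library, with flown groups in red, ground groups in blue, symbols for the replicate number and a black line at the group mean. The dotted line divides the BO groups on the left from the VG groups on the right; CCA1, LHY and LNK2 peak in flown BO roots, while RVE1, RVE4 and CCL drop in BO ground roots.

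Before the comparisons, 1 library in each BO group and 1 at VG have to be named, because their clock genes stood apart from those of their mates. The replicate farthest from the other two, counted gene by gene on the log2(FPKM + 1) scale, was replicate 3 of flown sku5 for 7 of the 10 genes, replicate 3 of ground sku5 for 8, replicate 2 of flown WS for 9 and replicate 2 of ground WS for 7. In the VG groups the highest such count was 8, for replicate 2 of ground WS, which also had the lowest mean correlation with its mates (0.962). The log2 changes given by name for the 10 genes that rest on that VG library were also computed without it. A changed call or direction is given beside each. Each of the 4 BO libraries also had the lowest mean correlation with its mates over genes outside the clock lists (0.955, 0.951, 0.964 and 0.972), although in ground WS the nearest of its mates had 0.973. They did not all stand apart in the same direction. Replicate 2 of flown WS held the highest CCA1 of all libraries (147 FPKM) but little PRR7 (1.78 FPKM) and PRR9 (1.06 FPKM). Replicate 3 of ground sku5 and replicate 2 of ground WS held the least CCA1 at BO (11.9 and 12.9 FPKM). What set these libraries apart was not tested, and results are given with and without the 4 of them, a choice made after seeing the data. Leaving them out keeps 2 libraries in each BO group. It also removes libraries that stood apart in these same genes, which tends to narrow the spread. Adjusted p-values and calls under this setting are therefore descriptive.

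**Figure D3:**
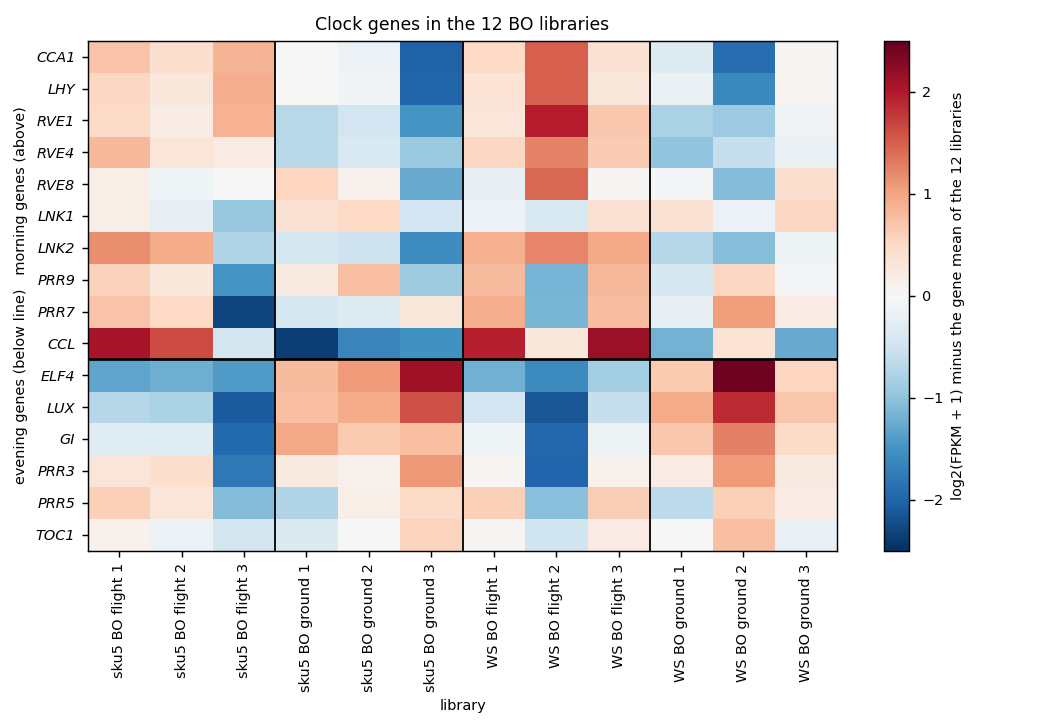
Level of the 10 morning genes (above the line) and 6 evening genes (below it) in the 12 BO libraries, as log2(FPKM + 1) minus the gene's mean over these libraries, from blue (low) to red (high). Replicate 2 of flown WS and replicate 3 of flown sku5 are low in LUX, GI, PRR3, PRR9 and PRR7 against their mates, and replicate 2 of ground WS and replicate 3 of ground sku5 are low in CCA1 and LHY and high in ELF4 and LUX.

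The BO flight asks how roots of the mutant and the wild type differ from ground roots after launch, microgravity and capsule landing. In both lines RVE4, RVE1 and CCL were higher in flown roots, and in WS LNK2 was higher too. CCA1 and LHY lay higher in every flown library than in every ground library of the same line, but neither passed the test. The share of all tested genes with groups apart was not counted in any comparison. Gaps between ranges are therefore given as a description, not as a test. Of the 10 genes, 3 rose and 0 fell in sku5, where 5.05% of all tested genes were called higher and 5.25% lower. In WS 4 rose and 0 fell, where 5.51% of all tested genes were called higher and 6.15% lower. A call means a Benjamini-Hochberg adjusted p under 0.05 from limma over the 20127 genes tested. With a median-ratio factor per library, the sku5 calls were 1266 higher and 837 lower, against 1016 and 1056 without it, and the WS calls were 1356 higher and 1023 lower, against 1108 and 1237. The median log2 change of the 10 genes was 1.19 in sku5 and 1.33 in WS, against -0.09 and -0.08 over all tested genes.

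The repressor CCA1 had 85.3, 68.7 and 93.3 FPKM in flown sku5, against 51.4, 46.1 and 11.9 FPKM in ground sku5. In WS it had 73.3, 147 and 66.6 FPKM in flown roots, against 40.7, 12.9 and 53.8 FPKM in ground roots. The ranges were apart in both lines, but 1 library of each ground group was far below its mates. The log2 change was 1.38 in sku5 (SE 0.52, limma adjusted p = 0.102) and 1.51 in WS (SE 0.52, limma adjusted p = 0.0698), and over the alternatives the adjusted p stayed between 0.0861 and 0.371 in sku5 and between 0.0521 and 0.298 in WS.

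Its partner LHY had 82.9, 70.0 and 108 FPKM in flown sku5, against 56.8, 54.9 and 13.5 FPKM in ground sku5, and 72.6, 163 and 70.4 FPKM in flown WS, against 51.4, 18.1 and 59.5 FPKM in ground WS. It varied between libraries as CCA1 did. The log2 changes were 1.27 in sku5 (SE 0.48, limma adjusted p = 0.105) and 1.28 in WS (SE 0.48, limma adjusted p = 0.0981). Without the 4 libraries that stood apart, the changes of LHY were 0.44 and 0.36 and those of CCA1 were 0.64 and 0.57, in sku5 and WS in that order.

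RVE4, an activator of evening genes, had 97.6, 68.4 and 64.1 FPKM in flown sku5, against 34.0, 42.3 and 28.5 FPKM in ground sku5. In WS it had 79.9, 132 and 86.7 FPKM in flown roots, against 27.3, 36.5 and 49.4 FPKM in ground roots. All flown libraries lay above all ground libraries. It rose by 1.11 on the log2 scale in sku5 (SE 0.24, limma adjusted p = 0.00759) and by 1.38 in WS (SE 0.24, limma adjusted p = 0.00171). Of the set, RVE4 had the smallest residual spread (percentile 58.9 among tested genes), and its call held under all 13 alternatives in both lines.

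RVE1 had 24.8, 20.0 and 32.5 FPKM in flown sku5, against 10.4, 12.2 and 5.62 FPKM in ground sku5, and 21.7, 70.4 and 28.3 FPKM in flown WS, against 9.59, 8.79 and 16.3 FPKM in ground WS. Flown libraries again lay above ground libraries in both lines. It rose by 1.395 in sku5 (SE 0.37, limma adjusted p = 0.0227) and by 1.57 in WS (SE 0.37, limma adjusted p = 0.011). The sku5 call was lost without flown replicate 1 (limma adjusted p = 0.0629), flown replicate 3 (0.0704) or ground replicate 3 (0.0832), and the WS call without ground replicate 1 (0.0579), within ranges of 0.019 to 0.0832 and 0.00798 to 0.0579 over the alternatives. Without the 4 libraries that stood apart it missed the threshold in both, with log2 changes of 0.92 (0.0559) in sku5 and 0.93 (0.0532) in WS. The third factor of this family, RVE8, did not pass the test in either line. It had 15.9 to 19.5 FPKM in flown and 6.68 to 25.5 FPKM in ground sku5, and 14.8, 48.4 and 17.8 FPKM in flown and 7.67 to 23.4 FPKM in ground WS, and its WS change of 0.65 (SE 0.46, limma adjusted p = 0.405) turned to -0.28 without the 4 libraries. In sku5 its change of 0.22 turned to -0.31 without ground replicate 3 and to -0.29 without the 4 libraries.

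Among the coactivators, LNK2 had 85.9, 73.1 and 22.1 FPKM in flown sku5, against 27.7, 25.9 and 12.1 FPKM in ground sku5. In WS it had 70.9, 89.0 and 73.3 FPKM in flown roots, against 22.6, 17.6 and 34.7 FPKM in ground roots. The WS groups did not overlap, while in sku5 flown replicate 3 fell among the ground libraries. LNK2 rose by 1.65 in WS (SE 0.42, limma adjusted p = 0.0177), a call lost without flown replicate 2 (0.0581), ground replicate 1 (0.0726) or ground replicate 2 (0.0644), over a range of 0.00502 to 0.0726. In sku5 the change of 1.29 (SE 0.42, limma adjusted p = 0.0596) was not called, but it was with a median-ratio factor per library (1.36, 0.0451), without flown replicate 3 (1.89, 0.00278) and without the 4 libraries (1.53, 0.00504), over a range of 0.00278 to 0.238. Its relative LNK1 did not pass the test in either line. It had 2.73 to 7.02 FPKM in flown and 4.20 to 9.16 FPKM in ground sku5, and 4.52 to 8.39 FPKM in flown and 5.50 to 9.37 FPKM in ground WS, with log2 changes of -0.46 and -0.30 (SE 0.33 each).

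The day-phased repressors PRR9 and PRR7 had uneven replicates at BO. PRR7 had 9.12, 7.66 and 0.25 FPKM in flown sku5, against 3.58, 3.91 and 6.44 FPKM in ground sku5, and 10.6, 1.78 and 9.52 FPKM in flown WS, against 4.32, 11.7 and 6.04 FPKM in ground WS. In each flown group 1 library was near or below the ground libraries and the other two were above most of them. The log2 changes were -0.20 in sku5 and -0.16 in WS (SE 0.64 each, limma adjusted p = 0.883 and 0.908). Without the 4 libraries that stood apart they were 0.98 in sku5 (limma adjusted p = 0.0265) and 0.85 in WS (0.0495), both under the threshold. The ranges over the alternatives were 0.0265 to 0.997 and 0.0495 to 0.96. PRR7 was among the genes by which these 4 libraries stood apart, so passing the threshold here is no independent test. The sign already turned without 1 library: 0.50 in WS without flown replicate 2, 0.19 without ground replicate 2, and in sku5 0.76 without flown replicate 3 and 0.01 without ground replicate 3. In residual spread PRR7 was at percentile 98.1 among tested genes, CCL at 97.8 and PRR9 at 97.1. PRR9 had 5.84, 4.63 and 0.63 FPKM in flown sku5, against 4.38, 6.70 and 1.47 FPKM in ground sku5, and 6.99, 1.06 and 7.05 FPKM in flown WS, against 2.50, 5.59 and 3.52 FPKM in ground WS. Its log2 changes were -0.23 in sku5 and 0.12 in WS (SE 0.57 each), with overlapping ranges, and without the 4 libraries -0.05 in sku5 and 1.01 in WS (limma adjusted p = 0.0718). The sign turned to 0.41 in sku5 without flown replicate 3 and to 0.12 without ground replicate 2, and in WS to -0.21 without flown replicate 1 or 3 and to -0.10 without ground replicate 1.

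The output gene CCL showed the widest contrast of the set. It had 22.4, 16.4 and 3.09 FPKM in flown sku5, against 0.10, 0.79 and 0.95 FPKM in ground sku5, and 20.5, 5.82 and 23.9 FPKM in flown WS, against 1.47, 6.06 and 1.35 FPKM in ground WS. The sku5 groups were apart, and in WS replicate 2 of the flown and of the ground group met near 6 FPKM. CCL rose by 2.92 in sku5 (SE 0.61, limma adjusted p = 0.00618), a call kept under all 13 alternatives. In WS it rose by 2.16 (SE 0.61, limma adjusted p = 0.03). That call was lost without flown replicate 1 (0.11), flown replicate 3 (0.127), ground replicate 1 (0.135) or ground replicate 3 (0.115) and with no filter on low values (0.0527), while without the 4 libraries the change was 3.27 (0.000329), the smallest adjusted p of the alternatives. On the log2(FPKM + 1) scale, changes of genes near or below 1 FPKM are understated.

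**Figure D4:**
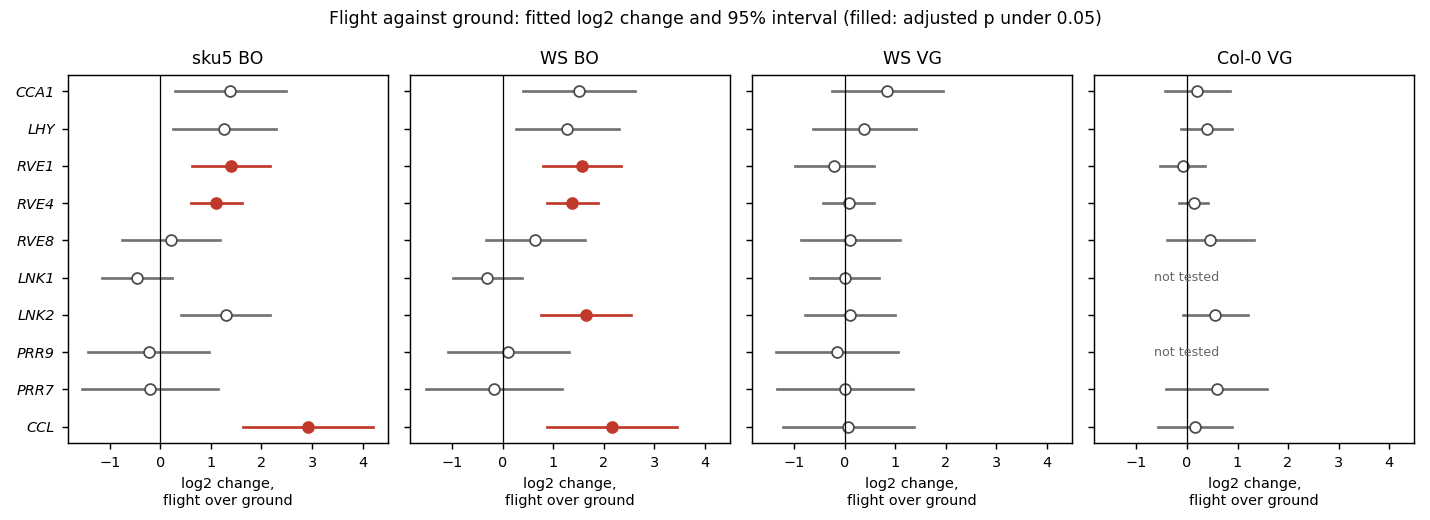
Fitted log2 change, flight over ground, with its 95% interval for each of the 10 genes in the 4 flight comparisons; filled red points have a limma adjusted p under 0.05. The called genes are RVE1, RVE4 and CCL in sku5 at BO and the same 3 with LNK2 in WS at BO, and 0 were called at VG.

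The authors' deposited tables of changed genes listed 3 of the 10 among 923 genes for flown sku5 and 4 among 865 for flown WS at BO. They were the same genes as called here from the same libraries, but at another cut-off. The largest p-value of the authors' test in these lists was 0.00999 in sku5 and 0.009996 in WS. Calls here used a limma adjusted p under 0.05. The authors' deposited table gave log2 changes of 4.58 for CCL (SE 0.73), 1.55 for RVE1 and 1.22 for RVE4 in sku5. In WS the authors' deposited table gave 2.57 for CCL, 1.86 for RVE1, 1.71 for LNK2 and 1.46 for RVE4. Mean normalized counts in the authors' deposited table were 3318 for RVE4, 3159 for LNK2, 1675 for RVE1 and 229 for CCL, so CCL rested on the fewest reads of these 4 genes. RVE1, LNK1 and LNK2 each overlap a neighbour on the opposite strand by up to 225, 245 and 266 bases in the annotation. The libraries keep strand, but whether counting used it is stated in no source used here, so reads of the overlap may be shared.

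Markers of green shoot tissue had a higher sum in flown than in ground sku5 at BO, while the sums overlapped in WS. The summed level of the 8 shoot markers (Rubisco small subunits and antenna proteins) was 516 to 667 FPKM in flown sku5, against 289 to 435 FPKM in ground sku5, and 486 to 566 FPKM in flown WS, against 306 to 513 FPKM in ground WS, with 7 or 8 of the 8 at 1 FPKM or more. The most abundant were RBCS1A and LHCB1.3, with medians over both lines of 235 and 275 FPKM in flown and 177 and 131 FPKM in ground libraries. By median, LHCB1.1, LHCB2.2 and LHCA1 were also higher in flown BO libraries. RBCS1B, RBCS2B and RBCS3B went the other way, with medians of 1.965, 3.045 and 5.86 FPKM in flown and 6.49, 3.915 and 9.56 FPKM in ground libraries. LHCB1.1, LHCB2.2 and RBCS2B were listed at 0 in at least 1 of the 24 libraries. The 3 stomatal markers FAMA, SPCH and MUTE summed to at most 2.12 FPKM and were each listed at 0 in some libraries. Their part in the clock values was not tested.

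Among the evening genes, which CCA1 and LHY repress and RVE4 and RVE8 activate, ELF4, LUX and GI were lower in flown BO roots of both lines. Of 10 evening genes, 0 rose and 4 fell in sku5, where 5.05% of all tested genes were called higher and 5.25% lower. In WS 0 rose and 3 fell, beside 5.51% and 6.15% of all tested genes. The list had a median log2 change of -0.76 in sku5 and -0.83 in WS, against -0.09 and -0.08 over all tested genes. ELF4, a subunit of the evening complex, had 17.8 to 20.5 FPKM in flown sku5, against 85.6 to 215 FPKM in ground sku5, and 15.6 to 26.5 FPKM in flown WS, against 71.0 to 267 FPKM in ground WS. It fell by 2.64 on the log2 scale in sku5 (limma adjusted p = 0.000965) and by 2.42 in WS (limma adjusted p = 0.00162). LUX, the DNA-binding subunit, had 1.62 to 5.77 FPKM in flown sku5, against 17.8 to 33.1 FPKM in ground sku5, and 1.53 to 7.04 FPKM in flown WS, against 17.1 to 39.4 FPKM in ground WS. It fell by 2.30 in sku5 and by 2.22 in WS. The calls of ELF4 and LUX held under all 13 alternatives in both lines. GI, an evening regulator of protein stability, fell by 1.63 in sku5 and by 1.52 in WS, but 8 and 10 of the 13 alternatives lost its call, with the highest limma adjusted p without flown replicate 3 in sku5 (-1.08, 0.125) and without flown replicate 2 in WS (-0.91, 0.187). Without the 4 libraries that stood apart the change of GI was -1.10 in sku5 (limma adjusted p = 0.0213) and -0.68 in WS (0.131). BOA, a relative of LUX, fell by 0.91 in sku5, a call lost in 8 of 13 (limma adjusted p up to 0.174), with a log2 change of -0.55 in WS that was not called.

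Of 7 other RVE and LNK genes, 6 were tested, and LNK3 and LNK4, relatives of the coactivators, were the 2 that rose in both lines. LNK4 had 33.5, 29.2 and 8.08 FPKM in flown sku5, against 6.02, 9.02 and 1.45 FPKM in ground sku5. It rose by 1.93 in sku5, a call lost without flown replicate 1 (limma adjusted p = 0.0984), flown replicate 2 (0.0783) or ground replicate 3 (0.0755) and with only the libraries compared (0.104). In WS it rose by 2.08, lost without flown replicate 1 (0.0536) or ground replicate 1 (0.0682). LNK3 rose by 1.73 in sku5 and by 1.87 in WS, lost in 6 and 4 of 13 alternatives (limma adjusted p up to 0.155 and 0.111). Of 11 clock regulators that act on protein, RNA or chromatin, LWD1, an activator of CCA1, and the splicing factor SKIP rose in both lines, by 0.86 and 0.66 in sku5 and by 0.67 and 0.55 in WS. The LWD1 call was lost in 1 of 13 alternatives in sku5 and in 5 in WS (limma adjusted p up to 0.0826 and 0.115), and the SKIP call in 0 and 2 (up to 0.078 in WS). Of 10 rhythmic output genes, 3 rose and 1 fell in each line, beside 5.05% called higher and 5.25% lower of all tested genes in sku5 and 5.51% and 6.15% in WS. The flowering repressors CDF2 and CDF3 rose by 1.69 and 1.298 in sku5 and by 2.02 and 1.36 in WS, and both held under all 13 alternatives. The catalase CAT3, an evening output in seedlings, rose by 1.07 in both, and the RNA-binding protein GRP8 fell by 0.42 in sku5 and by 0.51 in WS. CAT3 was lost in 6 of 13 alternatives in each line (limma adjusted p up to 0.134 in sku5 and 0.137 in WS), and GRP8 in 10 in sku5 and 5 in WS (up to 0.165 and 0.118).

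The VG flight asks the same of WS and Col-0. There 0 of the 10 genes were called in WS, where 0.00994% of all tested genes were called higher and 0.0199% lower, and 0 of 8 tested in Col-0, where 0% were called higher and 0.00532% lower. At an unadjusted p under 0.05 the limma count was also 0 in both. In WS at VG, LNK1 had at most 0.59 FPKM and PRR9 at most 0.77 FPKM. Both passed the filter only through BO libraries, so their missing calls there say nothing about a flight effect. CCA1 had 13.3, 22.9 and 19.5 FPKM in flown WS, against 9.88, 5.92 and 15.2 FPKM in ground WS, a log2 change of 0.84 (95% interval -0.26 to 1.94) with overlapping groups. In Col-0 it had 17.2, 12.3 and 16.5 FPKM in flown roots, against 20.0, 11.8 and 9.25 FPKM in ground roots, a change of 0.21 that turned to -0.02 without ground replicate 3. LHY had 21.4 to 25.8 FPKM in flown WS, against 13.7 to 22.3 FPKM in ground WS, and 19.0 to 28.7 FPKM in flown Col-0, against 14.3 to 22.1 FPKM in ground Col-0, with changes of 0.38 and 0.39.

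RVE4 had 67.4 to 76.9 FPKM in flown WS, against 52.9 to 84.3 FPKM in ground WS, and 92.9 to 116 FPKM in flown Col-0, against 92.3 to 96.7 FPKM in ground Col-0. Its log2 changes of 0.08 (95% interval -0.43 to 0.58) and 0.13 (-0.15 to 0.41) had intervals whose upper bounds lay below the lower bounds at BO (0.60 in sku5 and 0.87 in WS). The WS change turned to -0.09 without ground replicate 2. The Col-0 groups of LNK2 did not overlap, with 6.17 to 9.88 FPKM in flown, against 3.76 to 5.45 FPKM in ground roots. How many of all tested genes had groups apart was not counted. The log2 change of LNK2 in Col-0 was 0.56 and did not pass (95% interval -0.08 to 1.203, limma adjusted p = 0.994). In WS its log2 change was 0.10, which turned to -0.05 without flown replicate 1 and to -0.16 without ground replicate 2. The median log2 change of the tested members was 0.07 in WS and 0.30 in Col-0, against -0.02 and 0.00 over all tested genes. The WS median includes LNK1 and PRR9, whose levels there were too low to show a change. The authors' deposited tables for VG held 0 of the 10 among 57 genes for WS and 13 for Col-0. All other clock lists also had 0 calls at VG.

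Setting ground sku5 against ground WS at BO asks whether the mutation alone moves the morning genes. Limma called 0 of the 10, where 0% of all tested genes were called higher and 0.0149% lower, and 0 had an unadjusted p under 0.05. CCL had the largest difference, with 0.10, 0.79 and 0.95 FPKM in sku5, against 1.47, 6.06 and 1.35 FPKM in WS. The groups were apart, with a log2 change of -1.14 (95% interval -2.43 to 0.15, limma adjusted p = 1). The flight effects at BO also gave 0 calls when sku5 was compared with WS as an interaction, where 0% of all tested genes were called in either direction, and 0 of the 10 had an unadjusted p under 0.05. The difference was -0.27 for RVE4 (95% interval -0.99 to 0.44) and 0.76 for CCL (-1.06 to 2.58). These intervals are wide, and a miss of the threshold does not show that the lines respond alike.

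Ground roots of WS differed between BO and VG, where age, year, site, cultivator, temperature, light source and hour cannot be told apart. LNK2 and CCA1 were higher in BO ground roots, and CCL, RVE1 and RVE4 were lower. LNK1 and PRR9 entered the test only through their BO libraries, so a difference was built into the filter, and their values are given as a description outside the count. Of the other 8 genes, 2 were called higher and 3 lower, in a comparison where 16.9% of all tested genes were called higher and 15.3% lower. With a median-ratio factor per library, 3142 genes were called higher and 3357 lower, against 3407 and 3074 without it. The 8 shoot markers summed to 306 to 513 FPKM in BO ground roots of WS, against 92.7 to 144 FPKM in VG ground roots, and their part in these differences was not tested.

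LNK1 had 8.31, 5.50 and 9.37 FPKM at BO, against 0.36, 0.04 and 0.54 FPKM at VG, a fitted log2 difference of 2.72 (SE 0.33). LNK2 had 22.6, 17.6 and 34.7 FPKM at BO, against 7.88, 3.90 and 6.99 FPKM at VG (log2 change 1.83, SE 0.42, limma adjusted p = 0.0032). CCL had 1.47, 6.06 and 1.35 FPKM at BO, against 20.2, 7.89 and 21.2 FPKM at VG (log2 change -2.23, SE 0.61, limma adjusted p = 0.0103). For LNK2 and CCL the groups were apart and the call held under all 12 alternatives.

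RVE1 had 9.59, 8.79 and 16.3 FPKM at BO, against 30.3, 21.9 and 36.5 FPKM at VG. It fell by 1.301 (SE 0.37, limma adjusted p = 0.0122), a call lost without VG ground replicate 3 (0.0576, the highest of the alternatives, from 0.00501). RVE4 had 27.3, 36.5 and 49.4 FPKM at BO, against 68.0, 52.9 and 84.3 FPKM at VG. It fell by 0.85 (SE 0.24, limma adjusted p = 0.0117), lost without VG ground replicate 3 (0.0661) or BO ground replicate 1 (0.0728), over a range of 0.00588 to 0.0728. Both genes were lower in every BO library. CCA1 had 40.7, 12.9 and 53.8 FPKM at BO, against 9.88, 5.92 and 15.2 FPKM at VG, with ranges that met. It was higher by 1.57 on the log2 scale (SE 0.52, limma adjusted p = 0.0296), a call lost without VG ground replicate 1 (0.0658) or 2 (0.113) or BO ground replicate 1 (0.107) or 3 (0.139), over a range of 0.000161 to 0.139. PRR9 had 2.50, 5.59 and 3.52 FPKM at BO, against 0.63, 0.08 and 0.77 FPKM at VG. Its fitted log2 difference was 1.69 (SE 0.57).

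LHY, PRR7 and RVE8 were not called, with log2 changes of 1.05, 1.303 and 0.53. LHY was called without BO ground replicate 2 (1.57, limma adjusted p = 0.0209). PRR7 was called with only the libraries compared (limma adjusted p = 0.0124). Without the 4 BO libraries that stood apart, which leaves 2 libraries in the BO ground group, these 3 were called too, LHY with a limma adjusted p of 3.5e-05, PRR7 with 0.00767 and RVE8 with 0.0127.

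Whether the flight effect differs between the vehicles was tested in WS as an interaction. It was larger at BO for RVE4, by 1.304 (SE 0.34, limma adjusted p = 0.0307), and for RVE1, by 1.78 (SE 0.52, limma adjusted p = 0.0488). These 2 were the called members, both in the higher direction, where 3.63% of all tested genes were called higher and 3.2% lower. BO ground roots were low in both genes (means 37.8 FPKM of RVE4 and 11.6 of RVE1), against means of 68.4 or more and 25.4 or more in the other WS groups. Both calls were close to the threshold. Of 19 alternatives 8 lost the RVE4 call and 14 the RVE1 call, with adjusted p from 0.0169 to 0.0975 and from 0.0316 to 0.128. The RVE4 call was lost without VG flown replicate 2 (0.0707) or 3 (0.0538), VG ground replicate 1 (0.0664) or 3 (0.0904), BO flown replicate 2 (0.0698) or BO ground replicate 1 (0.0975). The RVE1 call was kept without VG ground replicate 2, BO flown replicate 1 or BO ground replicate 3 and lost without each of the other 9 WS libraries, with adjusted p from 0.0646 to 0.128. The differences for CCL (2.09), LNK2 (1.55), LHY (0.90) and CCA1 (0.67) were not called, although LNK2 was with only the libraries compared (limma adjusted p = 0.0298). Without the 4 libraries that stood apart CCL was called (3.19, limma adjusted p = 0.00281).

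CCA1 and LHY had similar levels in the BO libraries, and LHY was above CCA1 in all VG libraries. LHY over CCA1, both in FPKM and so per length, ran from 0.972 to 1.4005 with a median of 1.11 in the 12 BO libraries, and from 1.05 to 2.32 with a median of 1.51 in the 12 VG libraries. CCA1 spanned 5.92 to 147 FPKM and LHY 13.5 to 163 FPKM over the 24 libraries. The 2 BO ground libraries with the least CCA1 lay among the VG libraries in level.

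**Figure D5:**
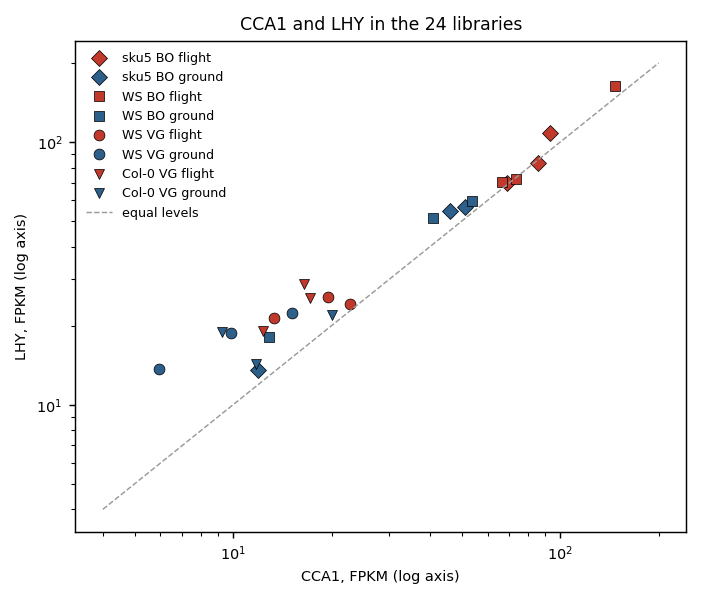
LHY against CCA1 in the 24 libraries (FPKM, both axes logarithmic), with flown groups in red, ground groups in blue, a symbol for each line and vehicle and a dashed line at equal levels. The 6 flown BO libraries lie at 66.6 FPKM of CCA1 or more, and VG libraries lie above the dashed line at low levels of both genes.

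The coactivator and MYB pairs were less even. LNK2 over LNK1 ran from 2.72 to 19.7 in the BO libraries and from 8.14 to 97.5 in the 11 VG libraries with any LNK1, and RVE4 over RVE8 from 1.33 to 5.41 there, against 4.26 to 14.0 at VG. Genes outside the set were ranked by how closely their 6 group means in WS and sku5 followed those of CCA1 and LHY. Only the 8641 tested genes with a symbol in the reference were ranked, and genes known by identifier alone were left out. Of those ranked, CH1, which converts chlorophyll a to b, was closest, with a root mean square difference of 0.09 on the log2 scale. Next came GH9B17, a glycosyl hydrolase (0.21), PSAH-1, a photosystem I subunit (0.23), LHCB2.1, an antenna protein (0.23), and UMAMIT12, of an amino acid transporter family (0.26). CCA1 and LHY themselves were at 0.13 from their joint profile. CH1 averaged 12.8 FPKM in flown sku5 and 5.52 in ground sku5, 14.4 in flown WS and 5.58 in ground WS at BO, and 2.63 in flown WS and 1.33 in ground WS at VG. At VG, GH9B17 averaged 0.823 FPKM in flown and 0.667 in ground WS, and LHCB2.1 1.19 and 0.96. At such levels the log2(FPKM + 1) scale understates differences, so their likeness to CCA1 and LHY depends on that scale. Likeness over 6 group means is a description and was not tested.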

How the data were processed

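Whole-root poly(A) RNA of 24 samples in 8 groups was measured. Per the submitters' processing notes, reads were handled with Trimmomatic 0.36, FastQC 0.11.4, MultiQC 1.1, STAR 2.7.3a, RSEM 1.2.31 and DESeq2; no source used here names the genome build. The authors deposited 1 FPKM table for Col-0 and 1 for WS and sku5. That the unit is FPKM was read from the values (length-weighted column sums varied by a CV of 1.02% and 1.09%). Depth per sample is unknown, so no counting interval was computed. Per the file headers, the authors' deposited lists of changed genes hold log2 fold changes, standard errors, a p-value and a mean normalized count (a signal over libraries); they were only described. Per the labels, flown and ground samples received different ERCC spike-in mixes, which were not analysed here.

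Groups came from the labels. Limma 3.58.1 (R 4.3.3) with a mean-variance trend was fitted on log2(FPKM + 1), keeping genes that reached 1 FPKM in 3 or more fitted libraries: 6 Col-0 libraries alone (4 residual degrees of freedom) and 18 WS and sku5 libraries together (12). Tests were two-sided, with Benjamini-Hochberg adjustment over all genes of each of 8 comparisons and calls at 0.05. The members, the 4 other clock lists and the rule for named genes were chosen with earlier results of these data known. That rule named all 10 members and, from each other list, up to 5 genes called in a flight comparison, by smallest p. Alternatives were a pseudocount of 0.1, no filter, a filter of 5 FPKM, a median-ratio factor, a replicate block, only the libraries compared and leaving out each library; leaving out 1 library in each BO group was added after seeing the data. Promoters came from RefSeq (TAIR10.1). The fit was tested on simulated data. Python 3.11.15, pandas 2.3.3, numpy 2.4.6 and matplotlib 3.10.9 were used.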

Additional observations from a re-analysis of the deposited data

Results flagged for a closer look

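The flight effect on RVE4 in WS differed between the vehicles by a log2 value of 1.304 (BO minus VG, SE 0.34, limma adjusted p = 0.0307). RVE4 averaged 99.6 FPKM in flown and 37.8 FPKM in ground roots at BO, and 71.02 FPKM in flown and 68.4 FPKM in ground roots at VG. The same interaction was 1.78 for RVE1 (SE 0.52, limma adjusted p = 0.0488), which averaged 40.1 FPKM in flown and 11.6 FPKM in ground roots at BO, and 25.4 FPKM in flown and 29.6 FPKM in ground roots at VG. Both were singled out because the difference of the 2 flight effects passed the test. Without the 4 BO libraries that stood apart they were 1.08 and 1.13 and neither was called (limma adjusted p = 0.0689 and 0.0716, within 0.0169 to 0.0975 and 0.0316 to 0.128 over the alternatives).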

How the results depend on the processing

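The calls of RVE4 in both BO comparisons, of CCL in sku5 at BO and of LNK2 and CCL between the sites held under all settings run for them. Apart from LNK1 between the sites, where the filter built in a difference, the other called members lost the call under at least 1. Leaving out each library in turn gave 1 to 3 called members in flown WS and 2 to 3 in flown sku5 at BO. Between the sites it gave 4 to 7, counting LNK1 and PRR9, whose difference was built into the filter. It gave 0 to 2 for BO minus VG and 0 elsewhere. Over all genes it gave 879 to 1962, 1082 to 2194, 4718 to 6069 and 467 to 1878 calls in those comparisons, 0 to 3 for Col-0, 3 to 21 for WS at VG, 2 to 3 for sku5 against WS and 0 to 1 for sku5 minus WS. It moved log2 changes through 0 for CCA1 in Col-0 (-0.019 to 0.50), RVE4 (-0.093 to 0.24) and LNK2 (-0.16 to 0.29) in WS at VG, PRR9 (-0.21 to 0.77) and PRR7 (-0.53 to 0.50) in WS at BO, and RVE8 (-0.31 to 0.59), PRR9 (-0.70 to 0.41) and PRR7 (-0.74 to 0.76) in sku5. Without the 4 BO libraries that stood apart, RVE8 was -0.28 in WS and -0.29 in sku5, PRR7 0.85 and 0.98, and the BO minus VG difference -0.275 for CCA1 and -0.018 for LHY; called members fell to 1 for BO minus VG, and 1 gene was called for sku5 minus WS. Called genes in Col-0 were 1 in the fit reported and 0 with a pseudocount of 0.1, no filter, a filter of 5 FPKM or the replicate block. In WS at VG they were 6, against 10 with a pseudocount of 0.1, 18 with no filter and 1 with only the libraries compared, a setting that also gave 942 in place of 2072 for sku5 at BO and 1 in place of 3 for sku5 against WS. Called members for BO minus VG were 1 with a pseudocount of 0.1 or no filter and 0 with the replicate block. Same-numbered libraries varied little together (correlations of deviations -0.159 to 0.143, with every library closest to its own number only in Col-0). The labels do not say whether the numbers pair samples, and the libraries were treated as unpaired. With a replicate block the called members were 3 in WS and 3 in sku5 at BO, and 0 at VG. The WS call of CCL was then lost (limma adjusted p = 0.0567). No block could be fitted between the sites' ground groups. The causes of these changes were not tested. Depth is unknown, so its share in the spread of low genes such as PRR9 and LNK1 cannot be told apart from other sources.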

Other observations

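Other clock genes also differed between WS ground roots at BO and at VG. GI had at most 0.91 FPKM in WS at VG and entered the test only through its BO libraries. A difference was therefore built into the filter, and its values are given as a description outside the count. Of the other genes in the list of 10 evening genes, LUX was called higher and BOA lower at BO. In that comparison 16.9% of all tested genes were called higher and 15.3% lower. GI had 8.65, 13.5 and 7.33 FPKM at BO, against 0.68, 0.30 and 0.61 FPKM at VG (fitted log2 difference 2.79, SE 0.46). LUX was higher by 1.76 (SE 0.43). BOA had a log2 change of -1.79 (SE 0.26). Beside the same percentages, 6 of 7 other RVE and LNK genes were tested, with 1 higher and 1 lower, 0 of 11 clock regulators were higher and 4 lower, and 2 of 10 output genes were higher and 2 lower. CDF3 was among the higher ones, with 11.2, 9.68 and 16.0 FPKM at BO, against 2.29, 1.33 and 3.42 FPKM at VG. For these other clock genes the site differences and list counts were not recomputed with libraries left out or under the other settings. Whether their calls hold is therefore unknown.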
